A study of Mus musculus with 4 samples.

Results

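The genes of the axis that holds plasma cells in a tissue niche, 8 of the 31054 in the feature table, were followed across the stromal-vascular cells of gonadal white adipose tissue (gWAT). They were the ligands Cxcl12, Tnfsf13 (APRIL) and Tnfsf13b (BAFF), and the receptors Cxcr4, Ackr3, Tnfrsf17 (BCMA), Tnfrsf13b (TACI) and Tnfrsf13c (BAFF-R). Each was found by its symbol, and the rule used no measured value. All cells came from male p16-Tom mice of 18 months, which carry p16-CreERT2 and R26-LSL-tdTomato and had received tamoxifen. In these animals the promoter of p16 (Cdkn2a) drives CreERT2, so that tdTomato (Tom) marks cells in which that promoter was active when tamoxifen was given, and their descendants. The suspensions were sorted into 4 groups of 1 library each, and values are listed in the order of their labels: CD45- Tom+ first, CD45- Tom- next, then CD45+ Tom+, and CD45+ Tom- last. The extraction record lists CD45- Tom- again in place of the last group, and here the group label was followed. The genotype, age, sex and tamoxifen treatment were common to all 4 groups, so no group lacked the Cre or the drug. With 1 library per group no test was possible, and the intervals given are exact 95% intervals that cover counting error only.

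CXCL12 is a chemokine that attracts and retains cells carrying the receptor CXCR4, and in bone marrow the cells rich in it house plasma cells. ACKR3 binds CXCL12 without the usual G protein signal and removes it from the surroundings. APRIL and BAFF are related cytokines of the TNF family. BAFF binds BAFF-R, TACI and BCMA, whereas APRIL binds TACI and BCMA, and signals through these receptors keep B cells and plasma cells alive.

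In mm10 with GENCODE vM21, Cxcl12 (ENSMUSG00000061353) lies at chr6:117168535-117181367 on the plus strand and Tnfsf13b (ENSMUSG00000031497) at chr8:10006467-10039072 on the plus strand. Tnfsf13 (ENSMUSG00000089669) lies at chr11:69682846-69685784 on the minus strand. Cxcr4 (ENSMUSG00000045382) lies at chr1:128588199-128592293 on the minus strand and Ackr3 (ENSMUSG00000044337) at chr1:90203980-90216751 on the plus strand. Tnfrsf17 (ENSMUSG00000022496) lies at chr16:11313812-11320074 on the plus strand, Tnfrsf13b (ENSMUSG00000010142) at chr11:61126755-61149372 on the plus strand and Tnfrsf13c (ENSMUSG00000068105) at chr15:82221743-82224369 on the minus strand. The 250 bases before the start of the RefSeq gene (GRCm38.p6) are shown for the 3 members that, over the 4 libraries together, were highest among the named classes in adipose progenitor-like cells, so that their sequences can be set side by side. Each is on the plus strand, 5′ to 3′, at chr6:117168285-117168534 for Cxcl12, chr1:90203730-90203979 for Ackr3 and chr8:10006217-10006466 for Tnfsf13b. Capitals mark the TATA box letters TATAAA and the GC box letters GGGCGG, on either strand.
Cxcl12: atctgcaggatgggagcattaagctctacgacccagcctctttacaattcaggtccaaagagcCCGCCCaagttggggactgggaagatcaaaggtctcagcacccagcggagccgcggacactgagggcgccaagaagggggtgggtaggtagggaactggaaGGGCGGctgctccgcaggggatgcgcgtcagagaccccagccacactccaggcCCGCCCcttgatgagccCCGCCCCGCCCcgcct
Ackr3: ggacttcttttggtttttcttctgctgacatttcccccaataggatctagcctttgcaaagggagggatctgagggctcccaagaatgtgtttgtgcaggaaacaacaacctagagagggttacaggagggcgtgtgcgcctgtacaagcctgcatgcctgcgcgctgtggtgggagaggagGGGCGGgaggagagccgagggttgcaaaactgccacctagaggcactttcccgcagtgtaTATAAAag
Tnfsf13b: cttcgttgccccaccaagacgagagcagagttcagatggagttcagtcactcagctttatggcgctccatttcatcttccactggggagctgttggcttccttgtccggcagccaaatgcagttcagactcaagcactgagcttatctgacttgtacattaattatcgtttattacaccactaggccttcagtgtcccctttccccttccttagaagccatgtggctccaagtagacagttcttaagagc
The Cxcl12 window held 14 CpG dinucleotides, 5 GC boxes and 0 TATA boxes. The Ackr3 window held 7 CpG, 1 TATA box and 1 GC box, and the Tnfsf13b window 5 CpG and neither motif. Of 32851 promoter windows of the same length, 12.4% held TATAAA and 32.7% held GGGCGG, with a median of 6 CpG per window. A match is a string of letters and not a shown site.

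After filtering, 3886, 3674, 1927 and 4391 cells were kept, with median depths of 18331 to 19502 unique molecular identifiers (UMIs, each standing for 1 captured transcript). Cells were clustered without the 8 genes and the pathway genes described below, and 23 of 31 clusters were named in 13 classes from marker genes. The tdTomato transcript stood at 713, 16.0, 715 and 18.8 CPM, the count per 1000000 UMIs, and followed the Tom label, whereas Ptprc, which encodes CD45, stood at 217, 158, 223 and 188 CPM and did not follow the CD45 label. The libraries labelled CD45- and CD45+ with the same Tom label are therefore given side by side and not as stromal and immune fractions. Jchain, the joining chain of secreted immunoglobulin, made up 12799, 571, 13785 and 710 CPM of the 4 libraries. Of the kept cells, 15.5%, 38.6%, 11.5% and 29.6% had a barcode that also occurred in another library. Between 26 and 4394 barcodes were shared per pair of libraries, and 1 to 14 of them passed the filter in both.

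Cxcl12 was carried by stromal cells, above all by adipose progenitor-like cells (APC-like; 262, 1518, 107 and 1713 cells), the fibroblast-like precursors of adipocytes. Its level in them was 1008 CPM (983 to 1034), 1238 CPM (1227 to 1250), 1056 CPM (1018 to 1095) and 1256 CPM (1245 to 1267). Blood endothelial-like cells stood next at 972, 926, 832 and 1163 CPM, with 45 cells behind the value of CD45+ Tom+. In CD45- Tom+ the intervals of these 2 classes overlapped (917 to 1029 CPM in endothelial-like cells), and in the other 3 libraries the progenitor-like cells were higher.

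A UMI of Cxcl12 was found in 94.3%, 95.8%, 95.3% and 95.4% of APC-like cells, at median depths of 21357.5 to 23480 UMIs. In B cell-like cells, which should lack the gene, the shares were 3.55%, 11.5%, 4.11% and 10.0% at median depths of 5287 to 6510 UMIs. With each cell thinned to 2000 UMIs, the shares in APC-like cells were 60.9%, 70.1%, 69.2% and 68.0%, against at most 4.00% in B cell-like cells. The other stromal classes were far lower. Lymphatic endothelial-like cells had 29.1 CPM in CD45- Tom+ and 20.3 CPM in CD45+ Tom+, where nearly all of these cells were found. Mesothelial-like cells had 21.4, 12.8 and 10.2 CPM in the 3 libraries with at least 50 of them, and B cell-like cells 4.74, 18.3, 5.16 and 13.7 CPM. Cluster 5, which had raised progenitor and mesothelial markers, was led by Cxcl13, Saa3, Ptgis and Clu and stayed unnamed, lay between at 180, 171, 177 and 189 CPM.

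Read by share of all Cxcl12 UMIs, APC-like cells held 48.8%, 93.9%, 51.3% and 93.7%. In the Tom+ libraries, cluster 24 held a further 28.7% and 23.7% of the Cxcl12 UMIs. This cluster of 99 cells had raised progenitor and plasma cell markers together and a median of 55442 UMIs, and 67 and 22 of its cells came from the 2 Tom+ libraries. In CD45- Tom+ its Cxcl12 level was 1081 CPM (1045 to 1117), above the 1008 CPM (983 to 1034) of APC-like cells. Whether the cells of cluster 24 were doublets that the caller missed was not tested. The remaining Tom+ UMIs were mostly in blood endothelial-like cells (9.60% and 11.3%) and cluster 5 (9.50% and 8.94%). Library-wide, Cxcl12 stood at 129, 615, 118 and 621 CPM. APC-like cells were 262 of 3886, 1518 of 3674, 107 of 1927 and 1713 of 4391 kept cells.

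Tnfsf13b, the BAFF gene, was highest in the same class among the named classes. Cluster 24, which stayed unnamed, had 32.6 CPM (26.7 to 39.4) in CD45- Tom+, with an interval that overlapped that of APC-like cells. APC-like cells had 26.3 CPM (22.3 to 30.7), 33.1 CPM (31.2 to 35.1), 35.2 CPM (28.5 to 43.0) and 34.0 CPM (32.2 to 35.8). Mesothelial-like cells, which line the outer surface of the depot, came next with 11.8, 14.3, 11.2 and 13.2 CPM, and their intervals did not reach those of APC-like cells in any library. A UMI was present in 37.8%, 44.6%, 43.0% and 46.0% of APC-like cells. In T cell-like cells, taken as the background, the shares were 1.30%, 2.52%, 0% and 1.13% at median depths of 5957 to 7357 UMIs. The 0% is 0 of 149 cells.

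Myeloid cells, a known source of BAFF, had lower levels of its gene here than APC-like cells. Macrophage-like cells had 2.52, 2.18, 0.949 and 2.15 CPM. Neutrophil-like cells had 12.9 CPM (5.19 to 26.6) in CD45+ Tom- from 7 UMIs and 4.38 CPM in CD45- Tom- from 2 UMIs. APC-like cells held 41.0%, 83.0%, 53.0% and 85.6% of all Tnfsf13b UMIs, and macrophage-like cells 12.0%, 1.73%, 4.42% and 1.91%.

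Tnfsf13, the APRIL gene, was barely counted. Only 22, 12, 9 and 25 UMIs were assigned to it in all kept cells, of which macrophage-like cells held 17, 6, 7 and 14, or 0.930, 0.545, 0.830 and 0.939 CPM. Its share of macrophage-like cells was 2.12%, 1.06%, 1.82% and 1.94%, against 0 of 384, 238, 149 and 355 T cell-like cells, which were shallower. This level is uncertain because of overlapping annotation. In GENCODE vM21, of the 1637 exonic bases of Tnfsf13, 983 (60.0%) also belong to Tnfsfm13, a read-through of Tnfsf12 and Tnfsf13 on the same strand, and so do all of the 500 bases nearest its 3′ end. Counting keeps reads that fit 1 gene, so 3′ reads of Tnfsf13 may not have been assigned to it. The annotation release the authors counted with is not given in the sources used here. The Tnfsfm13 row itself was highest in macrophage-like cells among the classes compared here, at 7.11, 7.18, 7.83 and 6.77 CPM, against 2.34, 2.33, 2.20 and 2.06 CPM in APC-like cells. Tnfsf12, the gene of TWEAK next to it, shared none of its 500 bases nearest the 3′ end, and had 99.9 CPM in macrophage-like and 81.3 CPM in APC-like cells over the 4 libraries.

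Ackr3, the scavenging receptor for CXCL12, was found in the named stromal classes at levels far above those of the leukocyte classes. Cluster 5, unnamed with raised progenitor and mesothelial markers, went the other way. It had 4.45, 10.4, 1.41 and 8.09 CPM, no higher than the macrophage-like cells of the same library. Lymphatic endothelial-like cells had 196 and 161 CPM in the Tom+ libraries. APC-like cells had 173 CPM (162 to 184), 201 CPM (197 to 206), 130 CPM (116 to 144) and 190 CPM (186 to 194), and mesothelial-like cells 156, 188, 93.1 and 166 CPM, with 34 cells behind the value of CD45+ Tom+. Blood endothelial-like cells were lower, at 74.7, 66.7, 88.3 and 85.5 CPM, below the APC-like cells of each library without overlap of the intervals. Shares of APC-like cells with a UMI were 50.0%, 52.6%, 44.9% and 54.3%, against 1.02%, 1.91%, 0% and 5.00% of B cell-like cells. Macrophage-like cells had 6.84, 14.4, 5.34 and 13.6 CPM. Within them, cluster 2 (Arg1, Spp1) had 19.8 to 20.9 CPM in the 4 libraries and cluster 3 (Gpnmb, C1qb) 0.628 to 3.17 CPM.

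**Figure D1:**
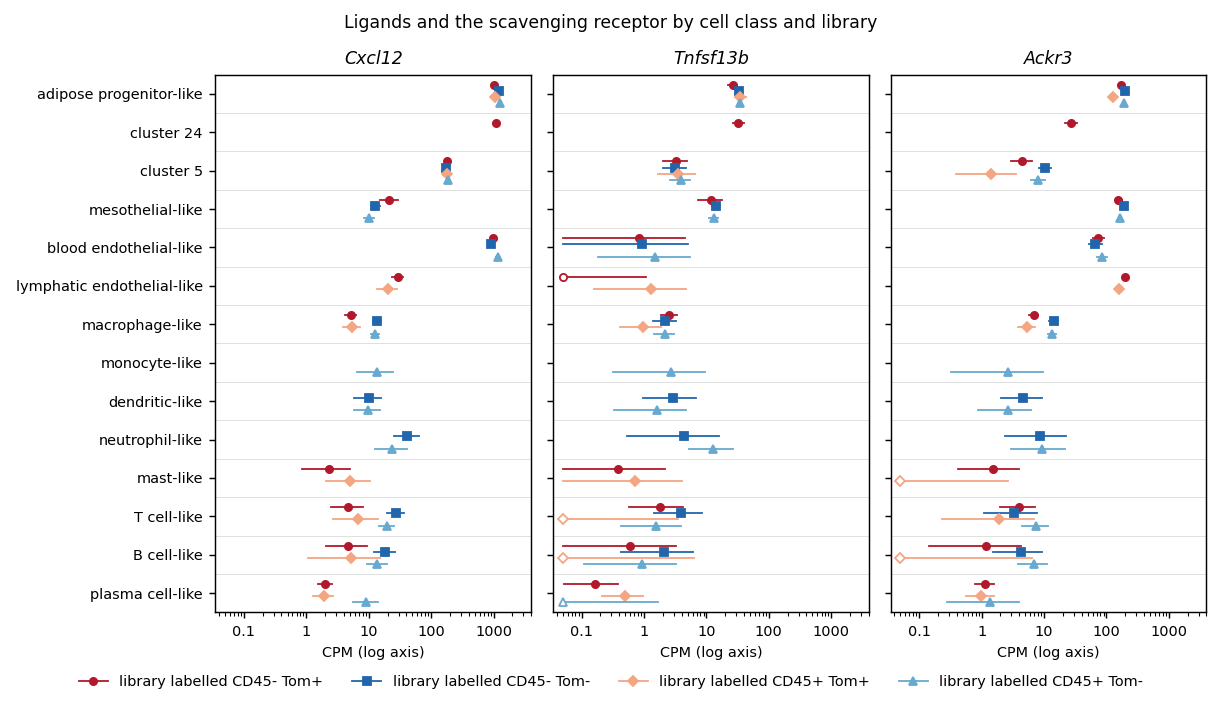
CPM (log axis) of the ligands Cxcl12 and Tnfsf13b and of the scavenging receptor Ackr3 in 14 cell classes and clusters, 1 point per library with at least 50 cells of the class, with its exact 95% interval; open points at the left edge of 0.05 CPM had 0 UMIs. Cxcl12 is highest in adipose progenitor-like and blood endothelial-like cells and in cluster 24. Tnfsf13b is highest in adipose progenitor-like cells, at 26.3 to 35.2 CPM, and in cluster 24, and Ackr3 in several stromal classes.

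The APC-like class was made of 6 clusters, and the ligand and its scavenging receptor were highest in different ones. Cluster 6 (783 cells), led by Sfrp1, Serping1 and C3 and rich in Il6 (916 CPM) and Ptx3 (611 CPM), had 2270 CPM of Cxcl12, 49.0 CPM of Tnfsf13b and 95.5 CPM of Ackr3. Cluster 14 (337 cells) had Pi16 at 957 CPM, Sema3c at 707 CPM and Dpp4 at 251 CPM, genes known from interstitial progenitors of adipose tissue. There, Ackr3 reached 934 CPM (914 to 954) and was found in 97.9% of cells, whereas Cxcl12 was 383 CPM (370 to 396) and Tnfsf13b 19.4 CPM. Cluster 8 (766 cells), with the preadipocyte genes Fabp4 (1887 CPM), Fgf10 (105 CPM) and Enpp6 (68.4 CPM), had 877 CPM of Cxcl12 and 132 CPM of Ackr3. Clusters 1, 27 and 15 had 1270, 1276 and 674 CPM of Cxcl12 and 98.4, 113 and 87.0 CPM of Ackr3.

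The high Ackr3 of cluster 14 was seen in each library, with 1013 CPM (924 to 1109), 964 CPM (933 to 996), 799 CPM (677 to 936) and 906 CPM (878 to 934). Every other progenitor cluster had at most 156 CPM of Ackr3 in any library. The values of cluster 14 in the Tom+ libraries rest on 18 and 6 cells. The high Cxcl12 of cluster 6 was likewise found in all 4 libraries, at 1677, 2306, 2680 and 2299 CPM. The clusters were made without Cxcl12, Ackr3 or Tnfsf13b. In single APC-like cells thinned to 2000 UMIs, both Cxcl12 and Ackr3 were detected in 9.58%, 10.0%, 11.2% and 10.6%, below the products of the separate shares of 11.2%, 14.2%, 12.9% and 13.7%. Without thinning the shares with both, 47.7%, 49.5%, 42.1% and 51.3%, lay within 1 percentage point of the products.

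**Figure D2:**
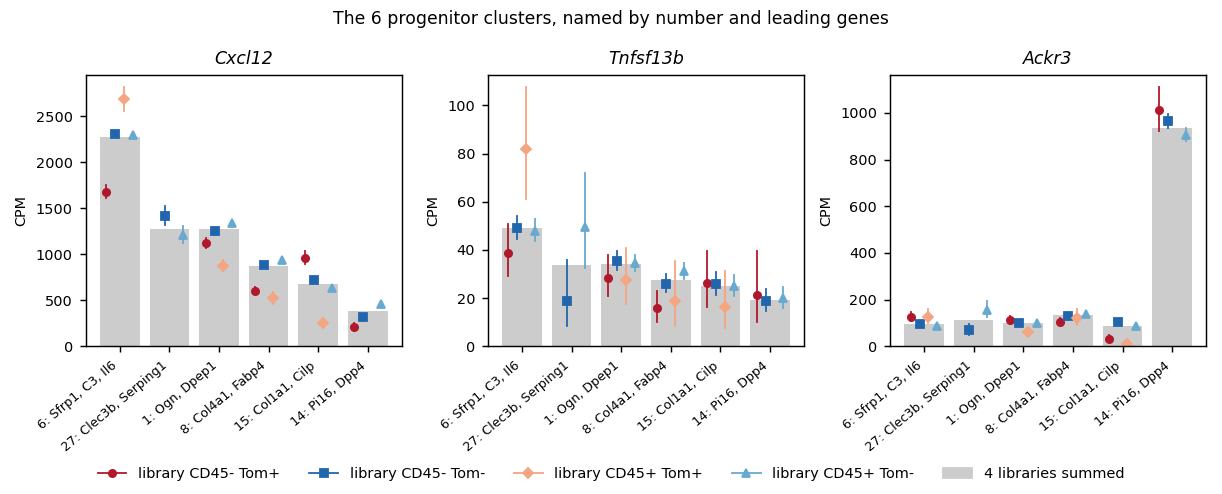
CPM of Cxcl12, Tnfsf13b and Ackr3 in the 6 progenitor clusters, with bars for the 4 libraries summed and points with exact 95% intervals for each library with at least 15 cells of the cluster. Cluster 6 has the tallest Cxcl12 and Tnfsf13b bars, at 2270 and 49.0 CPM, and cluster 14 the tallest Ackr3 bar, at 934 CPM, and the shortest Cxcl12 bar.

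Cxcr4, the signalling receptor for CXCL12, was found across the leukocyte classes apart from mast-like cells. Mast-like cells had 13.4 and 7.24 CPM in the Tom+ libraries, with intervals that overlapped those of APC-like cells (10.2 and 8.07 CPM). Neutrophil-like cells had the highest level, 812 CPM (731 to 899) in CD45- Tom- and 711 CPM (642 to 786) in CD45+ Tom-, the 2 libraries with more than 50 of these cells. Monocyte-like cells had 290 CPM (253 to 331) in CD45+ Tom-. Cluster 21, unnamed with raised natural killer and T cell markers, had 226 CPM (184 to 275) in CD45- Tom+, the highest value there. In CD45+ Tom- it had 280 CPM (235 to 332). Its interval overlapped that of B cell-like cells in both libraries. B cell-like cells had 183 CPM (163 to 204), 276 CPM (249 to 304), 210 CPM (174 to 251) and 235 CPM (215 to 257). T cell-like cells had 132, 197, 111 and 202 CPM and macrophage-like cells 168, 170, 146 and 158 CPM. Plasma cell-like cells (828, 39, 428 and 58 cells) were lower, with 61.3 CPM (58.6 to 64.2), 56.6 CPM (44.8 to 70.5), 51.9 CPM (48.5 to 55.5) and 87.5 CPM (75.5 to 101). Between 45.6% and 52.3% of the UMIs of IgM plasma cell-like cells came from immunoglobulin genes, which lowers the CPM of every other gene. With those genes out of the total the plasma cell values were 129, 104, 106 and 161 CPM, still below the 202, 280, 224 and 239 CPM of B cell-like cells on the same scale.

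By share of cells, Cxcr4 was found in 70.5%, 69.2%, 68.5% and 79.3% of plasma cell-like cells, at median depths of 35970 to 39394 UMIs. In APC-like cells, the background class, the shares were 17.9%, 7.84%, 14.95% and 6.36%. Within T cell-like cells, cluster 9 (Ccl5, Cd28) had 176, 234, 148 and 237 CPM, and cluster 11, with Trdc and other gamma-delta T cell genes, 109, 97.6, 90.2 and 94.1 CPM. Blood endothelial-like cells had 33.6, 43.5 and 55.5 CPM in the 3 libraries with at least 50 of them.

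Tnfrsf17, the gene of BCMA, marked plasma cell-like cells. Its level was 80.2 CPM (77.0 to 83.4), 93.1 CPM (77.8 to 111), 79.4 CPM (75.1 to 83.8) and 82.4 CPM (70.8 to 95.4), and the 4 intervals overlapped. A UMI was found in 74.5%, 74.4%, 74.1% and 75.9% of plasma cell-like cells, and in 9.92%, 0.791%, 5.61% and 0.467% of APC-like cells. B cell-like cells had 11.8, 0, 5.16 and 0.458 CPM, T cell-like cells 12.2, 0.662, 11.6 and 1.16 CPM, and macrophage-like cells 8.59, 1.45, 6.88 and 1.41 CPM. Outside plasma cell-like cells the gene was thus higher in the Tom+ libraries in each of these classes. Among the B cell-like cells of CD45- Tom-, 0 of 209 had a UMI, and 3 UMIs would amount to 2.11 CPM. Clusters 17 and 20, which had raised macrophage and plasma cell markers together and stayed unnamed, had 57.0 and 41.1 CPM in CD45- Tom+. In CD45+ Tom+ they had 56.1 and 27.6 CPM. Cluster 24 had 43.6 CPM in CD45- Tom+. Whether the cells of clusters 17 and 20 were doublets that the caller missed was not tested.

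Tnfrsf13b, the gene of TACI, was highest in plasma cell-like and B cell-like cells among the named classes. Plasma cell-like cells had 115 CPM (111 to 119), 125 CPM (107 to 145), 122 CPM (117 to 128) and 129 CPM (114 to 145). B cell-like cells had 96.5 CPM (82.2 to 112), 122 CPM (104 to 141), 99.8 CPM (75.8 to 129) and 115 CPM (101 to 130), and the intervals of the 2 classes overlapped in all libraries. This overlap depends on the scaling, since with immunoglobulin genes out of the total plasma cell-like cells had 241, 229, 249 and 237 CPM and B cell-like cells 106, 123, 106 and 117 CPM. Macrophage-like cells came lower at 39.3, 31.8, 38.5 and 33.6 CPM, without overlap with B cell-like cells, and dendritic-like cells had 33.4 and 30.5 CPM in the Tom- libraries. Mast-like cells had 33.0 and 40.6 CPM in the Tom+ libraries. The unnamed clusters 17 and 20 had 92.8 and 97.3 CPM in CD45- Tom+ and 110 and 100 CPM in CD45+ Tom+, with intervals that overlapped those of B cell-like cells. The shares with a UMI were 86.5%, 94.9%, 87.1% and 89.7% of plasma cell-like, 47.2%, 44.0%, 42.5% and 46.0% of B cell-like, 52.1%, 38.2%, 43.8% and 43.6% of macrophage-like and 15.3%, 2.17%, 16.8% and 2.39% of APC-like cells. These shares were not thinned, so differences in depth enter them. The median was 5849 UMIs in B cell-like cells, 15677 to 25316.5 in the macrophage-like clusters and 38797 in plasma cell-like cells.

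Tnfrsf13c, the gene of BAFF-R, was highest in B cell-like cells, at 129 CPM (112 to 147), 169 CPM (148 to 191), 96.4 CPM (72.8 to 125) and 153 CPM (137 to 170). Plasma cell-like cells had 64.3 CPM (61.5 to 67.2), 75.9 CPM (62.1 to 91.8), 68.2 CPM (64.2 to 72.3) and 73.7 CPM (62.8 to 86.0), lower in each library without overlap of the intervals. With immunoglobulin genes out of the total, the 2 classes stood at 142, 171, 103 and 155 CPM and at 135, 140, 139 and 136 CPM. The order of the classes in CD45+ Tom+ was then the other way round, so the lower level in plasma cell-like cells depends on that scaling. The gene was found in 75.2%, 79.5%, 76.2% and 84.5% of plasma cell-like cells, 56.3%, 53.1%, 45.2% and 58.0% of the shallower B cell-like cells and 8.40%, 0.922%, 13.1% and 1.11% of APC-like cells. Dendritic-like cells had 15.8 and 12.8 CPM in the Tom- libraries, and T cell-like cells 14.7, 3.97, 7.71 and 1.94 CPM.

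**Figure D3:**
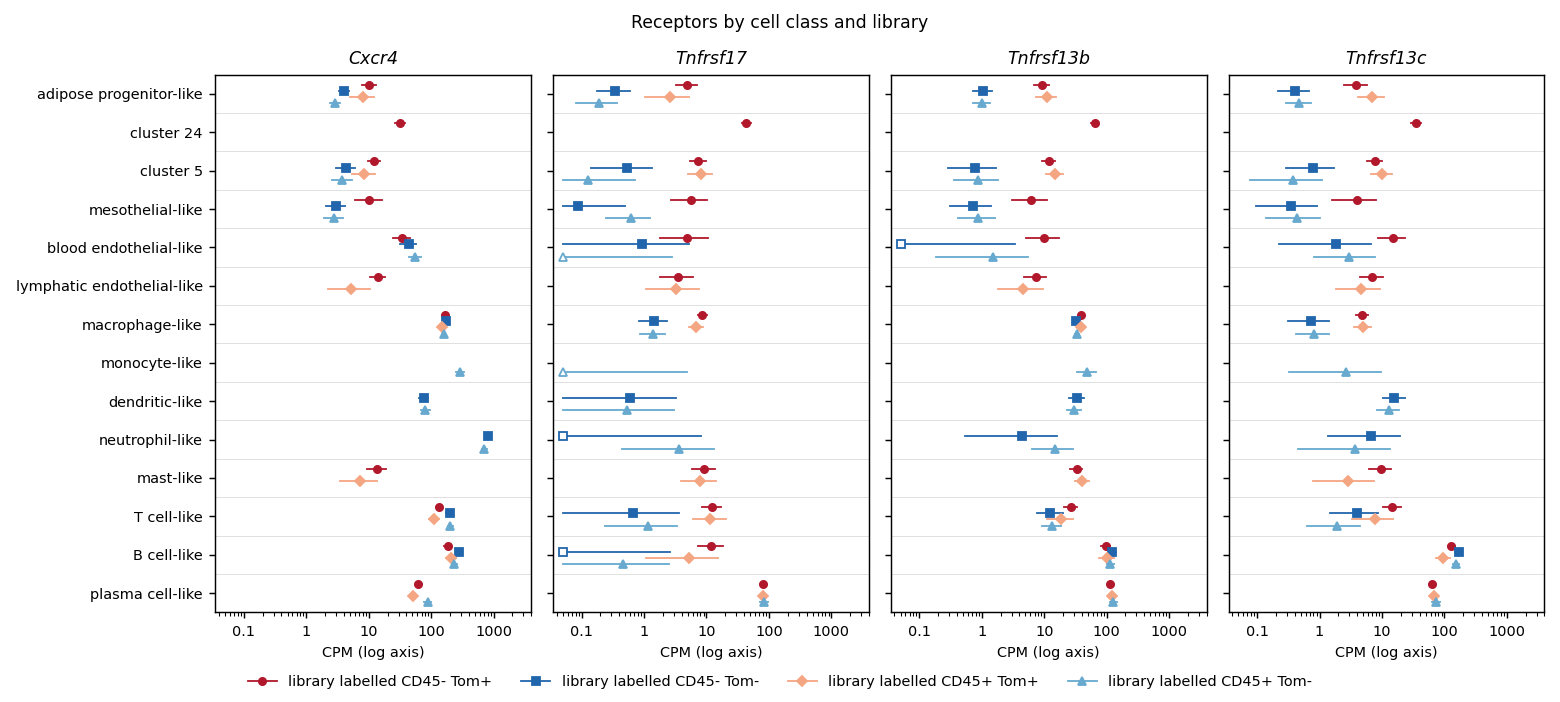
CPM (log axis) of Cxcr4, Tnfrsf17, Tnfrsf13b and Tnfrsf13c in 14 cell classes and clusters, 1 point per library with at least 50 cells of the class, with its exact 95% interval; open points at the left edge had 0 UMIs. Cxcr4 is spread over the leukocyte classes apart from mast-like cells. Of those drawn, Tnfrsf17 is highest in plasma cell-like cells, Tnfrsf13b in plasma cell-like and B cell-like cells and Tnfrsf13c in B cell-like cells. Clusters 17, 20 and 21 are not drawn.

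Nearly every plasma cell-like cell carried a receptor for BAFF or APRIL. At least 1 of the 3 receptors was found in 94.2%, 97.4%, 96.5% and 93.1% of plasma cell-like cells, and all 3 in 58.1%, 61.5%, 55.8% and 65.5%. Among B cell-like cells, at least 1 was found in 75.6%, 70.8%, 69.9% and 76.3%, and all 3 in 3.05%, 0%, 1.37% and 0%, at median depths of 5287 to 6510 UMIs against 35970 to 39394. By the heavy chain that made up over 50% of a cell's constant-region UMIs, 1345 of the 1353 plasma cell-like cells were IgM, 5 IgA and 3 IgG. A comparison of the receptors between isotypes was therefore not possible. In the IgM cells of all libraries together, without immunoglobulin genes in the total, Tnfrsf13b stood at 243 CPM, Tnfrsf17 at 165, Tnfrsf13c at 137 and Cxcr4 at 122 CPM.

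Transcripts of plasma cells were also present in the other classes, and more so in the Tom+ libraries. Jchain was at 26920, 28671 and 23120 CPM in plasma cell-like cells of CD45- Tom+, CD45+ Tom+ and CD45+ Tom-. In macrophage-like cells it was at 1588, 109, 1480 and 93.4 CPM, and in APC-like cells at 1715, 84.4, 2648 and 81.4 CPM. Each receptor was set against the amount that would come along with Jchain at the ratio found in plasma cell-like cells of the same library. For Tnfrsf17 in the Tom+ libraries, the observed level was 0.350 to 1.82 times that amount over the other classes and clusters with at least 50 cells. The highest of these was in macrophage-like cells, whose level of 8.59 CPM (7.30 to 10.0) lay above the amount of 4.73 CPM. In the Tom- libraries Tnfrsf17 in macrophage-like cells was 3.25 and 4.23 times the amount, from 16 and 21 UMIs. Tnfrsf13b in macrophage-like cells was 5.79, 53.1, 6.10 and 64.7 times the amount, and in B cell-like cells 3.702, 76.2, 6.999 and 80.1 times. In dendritic-like cells of the Tom- libraries it was 60.9 and 48.3 times. Tnfrsf13c in B cell-like cells was 8.85, 173, 12.1 and 186 times the amount, but in macrophage-like cells 1.27, 1.99, 1.42 and 2.70 times. In APC-like cells Tnfrsf13b was 1.26, 2.24, 0.974 and 2.24 times the amount. Levels near 1 on this scale thus occurred in the Tom+ libraries for Tnfrsf17 in T cell-like and for Tnfrsf13b in APC-like cells, while Tnfrsf13b in macrophage-like and B cell-like cells lay above it in every library.

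**Figure D4:**
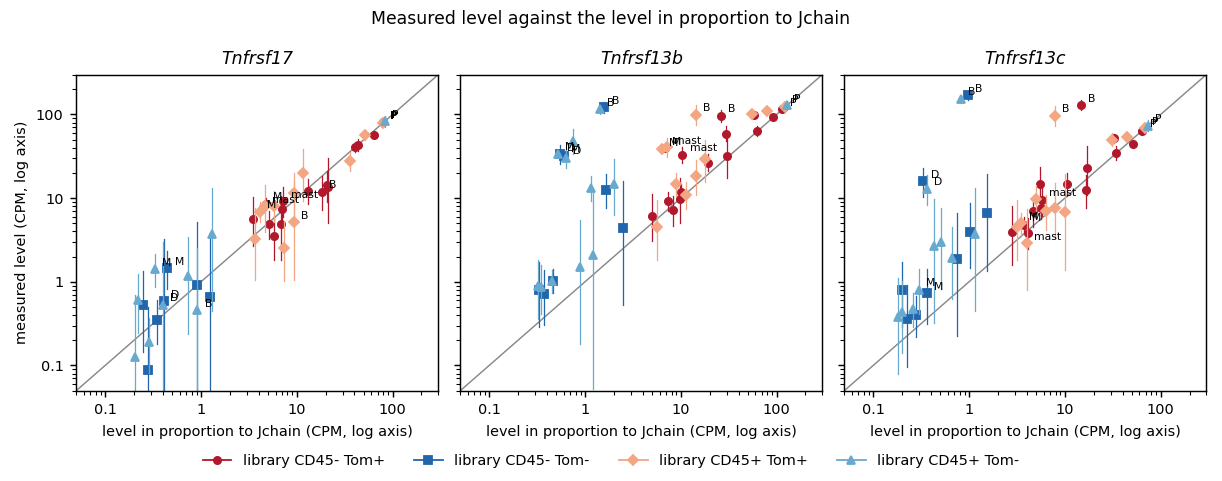
Measured CPM of the 3 receptors of BAFF and APRIL against the CPM in proportion to Jchain at the plasma cell-like ratio of the same library (both log axes), 1 point per class or cluster and library with at least 50 cells; lines are exact 95% intervals, the diagonal marks equal values, and letters mark B cell-like (B), macrophage-like (M), plasma cell-like (P) and dendritic-like (D) cells. Tnfrsf17 in the Tom+ libraries lies on both sides of the diagonal, at 0.350 to 1.82 times it. Tnfrsf13b in macrophage-like cells and Tnfrsf13c in B cell-like cells lie above the diagonal. Classes without a UMI of a gene are not drawn.

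The Tom+ and Tom- libraries were compared within each class that had at least 50 cells in both. A gene was counted as past the fold at a 2-fold ratio or more, if its mean over both libraries reached 5 CPM. In APC-like cells, Cxcl12 was lower in Tom+ in both pairs, with log2 ratios of -0.30 (-0.34 to -0.26) between the CD45- libraries and -0.25 (-0.31 to -0.20) between the CD45+ libraries. With cells of shared barcodes left out, the second ratio was 0.04, so its direction rests on those cells. Ackr3 in APC-like cells was at -0.22 (-0.32 to -0.13) and -0.55 (-0.71 to -0.40). Cluster 14, the one rich in Ackr3, made up 18 of 262 and 6 of 107 APC-like cells in Tom+, and 149 of 1518 and 164 of 1713 in Tom-. With both libraries of a pair set to 1 mix of progenitor clusters, the ratios of Ackr3 were 0.03 and -0.30, so that of the CD45- pair lost its direction. Tnfsf13b was at -0.33 (-0.58 to -0.09) and 0.05 (-0.26 to 0.35), and the second interval spans 0. Of the 5 members whose mean reached 5 CPM, Cxcr4 (1.34 and 1.50) and Tnfrsf13b (3.15 and 3.44) were past 2-fold, both higher in Tom+. Over all genes, 1.51% of 9917 were past 2-fold in APC-like cells of the CD45- libraries and 1.58% of 9826 in those of the CD45+ libraries. Tnfrsf17 and Tnfrsf13c, below 5 CPM, were at 3.81 and 3.76 and at 3.26 and 3.88. Jchain in the same cells was at 1715 against 84.4 CPM and at 2648 against 81.4 CPM. With the part in proportion to Jchain taken off, Cxcr4 stood at 6.31 against 3.82 CPM and at 3.28 against 2.55 CPM, less than 2-fold apart in both pairs. Tnfrsf13b in these cells stood at 0.974 to 2.24 times its amount in proportion to Jchain.

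In macrophage-like cells, Cxcr4 was at -0.02 (-0.10 to 0.07) and -0.11 (-0.21 to -0.01) and Tnfrsf13b at 0.30 (0.12 to 0.49) and 0.20 (-0.01 to 0.40). Tnfrsf17 was at 2.56 and 2.29, and Cxcl12 (-1.39 and -1.25) and Ackr3 (-1.07 and -1.35) were lower in Tom+. Of the members whose mean reached 5 CPM, 1 was past 2-fold upwards and 2 downwards of 5 in the CD45- pair, and 2 downwards of 4 in the CD45+ pair, against 2.22% and 2.63% of all genes. Cluster 2, which had the higher Ackr3, made up 198 of 755 and 107 of 384 macrophage-like cells in Tom+, and 364 of 568 and 445 of 722 in Tom-. Within cluster 2, Ackr3 was 20.6 against 20.9 CPM and 19.8 against 20.9 CPM. Library-wide Cxcl12 was 129 against 615 CPM and 118 against 621 CPM in the same pairs. The part of free RNA in the ratio of Cxcl12 was not tested.

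In B cell-like cells, Cxcr4 was at -0.59 (-0.81 to -0.37) and -0.16 (-0.46 to 0.12) in the 2 pairs. Tnfrsf13c was at -0.39 (-0.66 to -0.12) and -0.67 (-1.10 to -0.25), and Tnfrsf13b at -0.33 (-0.65 to -0.02) and -0.20 (-0.64 to 0.21). These receptors were thus lower in Tom+ in both pairs, with intervals that span 0 for Cxcr4 and Tnfrsf13b in the CD45+ pair, and none of them was past 2-fold. Cxcl12 was at -1.95 (-3.30 to -0.76) in the CD45- pair, from 8 and 26 UMIs. In the CD45+ pair it was at -1.41 (-3.77 to 0.27), from 3 and 30 UMIs, and this interval spans 0. Tnfrsf17 in the CD45- pair had 20 UMIs in Tom+ and 0 in Tom-, at least 5.61-fold higher against a floor of 3 UMIs, and the lower limit of its exact interval was 2.06 on the log2 scale. In this pair 2 of 5 members were past 2-fold, against 8.06% of all genes, and in the CD45+ pair 1 of 4 (Cxcl12), against 11.7%. In T cell-like cells, Cxcr4 was at -0.58 (-0.80 to -0.35) and -0.86 (-1.17 to -0.57), Cxcl12 at -2.54 and -1.52 and Tnfrsf17 at 4.21 and 3.31. There 4 of 5 members were past 2-fold in the CD45- pair (Tnfrsf17, Tnfrsf13b and Tnfrsf13c upwards, Cxcl12 downwards), against 8.62% of all genes. In the CD45+ pair 2 of 4 were (Tnfrsf17 and Cxcl12), against 10.4%. In T cell-like cells of CD45- Tom+, Tnfrsf17, Tnfrsf13b and Tnfrsf13c stood at 0.922, 1.40 and 1.39 times their amounts in proportion to Jchain. In CD45+ Tom+, Tnfrsf17 stood at 1.24 times its amount. The part of free RNA in the Cxcl12 ratios of B cell-like and T cell-like cells was not tested. Cluster 9, the one with the higher Cxcr4, made up 129 of 384 and 56 of 149 T cell-like cells in Tom+, and 182 of 238 and 273 of 355 in Tom-.

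Plasma cell-like cells could be compared in the CD45+ pair, with 428 and 58 cells. The log2 ratios of their receptors for BAFF and APRIL were -0.05 (-0.28 to 0.18) for Tnfrsf17, -0.07 (-0.25 to 0.11) for Tnfrsf13b and -0.11 (-0.35 to 0.13) for Tnfrsf13c, and all 3 intervals span 0. Cxcr4 was lower in Tom+ at -0.75 (-0.98 to -0.52). Cxcl12, at 1.91 and 9.16 CPM, was the 1 of 5 members past 2-fold, against 3.86% of 6475 genes. Its values rest on 31 and 20 UMIs. Library-wide, Cxcl12 was 118 against 621 CPM in the same pair, and the part of free RNA in the ratio was not tested. Immunoglobulin genes held 50.8% and 45.7% of the UMIs of the IgM cells in the 2 libraries. Cluster 5 was compared in both pairs, and mesothelial-like and blood endothelial-like cells in the CD45- pair, without the share over all genes. In cluster 5, Cxcl12 was at 0.07 and -0.10, Ackr3 at -1.22 and -2.52, and Cxcr4 at 1.48 and 1.16. Its Tnfrsf13b was at 3.90 and 4.07 and its Jchain at 5.28 and 5.18. Cxcr4 of mesothelial-like cells was at 1.74, and Tnfrsf13c of blood endothelial-like cells at 3.00, with Jchain at 4.11 and 3.35.

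**Figure D5:**
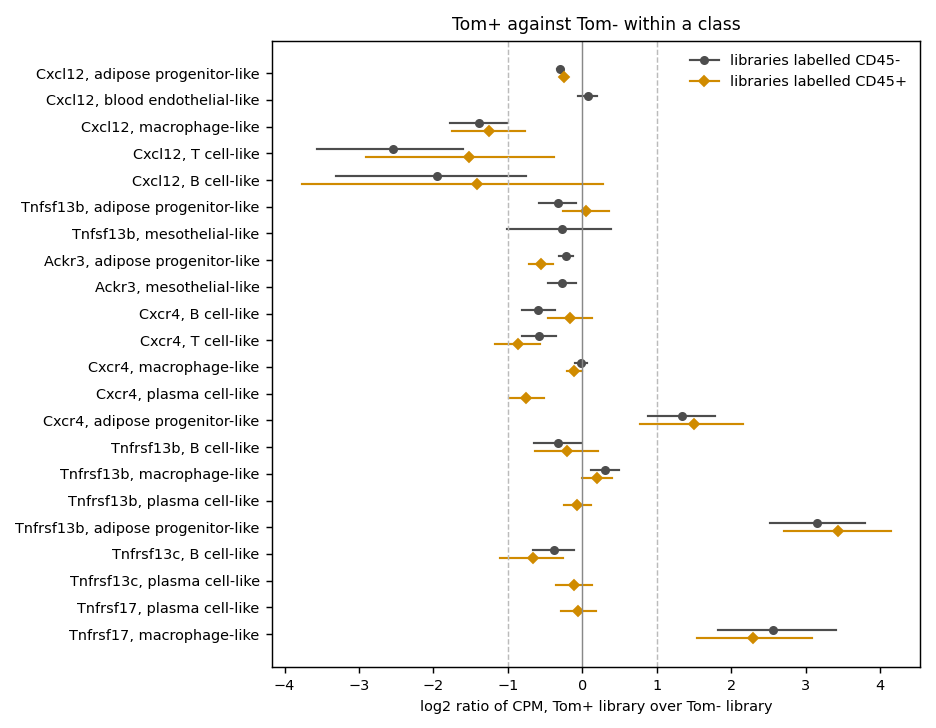
Log2 ratio of CPM in the Tom+ over the Tom- library for selected members and classes, with conditional exact 95% intervals, a line at 0 and dashed lines at 2-fold; dark circles are the libraries labelled CD45- and orange diamonds those labelled CD45+. Cxcr4 of T cell-like cells and Cxcl12 of adipose progenitor-like cells lie below 0 in both pairs, and Tnfrsf17 of macrophage-like cells lies above it.

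The other genes of the pathway were counted from lists. Among 10 stromal niche factors, 3 were highest in APC-like cells over the 12 named classes with at least 50 cells, namely Cxcl12, Il6 (503 CPM), a growth factor of plasma cells, and Vcam1 (302 CPM), the ligand of the integrin of Itga4. Kitl (422 CPM) and Cd200 (287 CPM) were highest in blood endothelial-like cells, Il7 (122 CPM) in lymphatic endothelial-like cells and Fn1 (5132 CPM) in macrophage-like cells. Of the 9 of these factors measured in APC-like cells, 0 were past 2-fold between Tom+ and Tom- in either pair, with medians of -0.28 and -0.19 against -0.04 and -0.06 over all genes. Among 8 myeloid niche factors, Tnf (336 CPM) and Ptgs2 (995 CPM) were highest in neutrophil-like cells and Cd86 (141 CPM) in dendritic-like cells. Il10, an anti-inflammatory cytokine, was highest in plasma cell-like cells at 186 CPM, with 52.8 CPM in macrophage-like cells. It was past 2-fold higher in Tom+ in APC-like, macrophage-like, B cell-like and T cell-like cells of both pairs. In APC-like cells Il10 stood at 17.2 against 1.84 CPM in the CD45- pair and at 22.0 against 1.77 CPM in the CD45+ pair. In macrophage-like cells it stood at 76.0 against 32.8 CPM and at 74.0 against 27.3 CPM. Jchain was also higher in Tom+ in every class compared. The part of plasma cell RNA in the Il10 ratios was not tested. Among the 9 genes of ligand processing and receptor shedding, Furin, whose protease cuts APRIL and BAFF, had 728 CPM in mast-like and 131 CPM in macrophage-like cells. Adam10, whose protease sheds TACI, had 352 CPM in lymphatic endothelial-like and 292 CPM in macrophage-like cells.

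In plasma cell-like cells, 4 of 11 adhesion and co-stimulation receptors reached 50 CPM, namely Sdc1 (129 CPM), Itga4 (108 CPM), Itgal (95.5 CPM) and Cd44 (93.0 CPM). Il5ra had 36.8 CPM and Cd28 20.7 CPM, the latter against 445 CPM in T cell-like cells. Of 8 survival genes, Mcl1 (445 CPM), on which plasma cells depend, was the 1 to reach 50 CPM. Of 11 genes that relay BAFF and APRIL signals, 0 reached 50 CPM, with Birc2 at 43.2 CPM and Tnfaip3 at 33.5 CPM, against 3 of 11 in B cell-like cells, where Birc3 had 183 CPM. These counts share the lowering of plasma cell CPM by immunoglobulin transcripts. Between Tom+ and Tom- plasma cell-like cells of the CD45+ pair, 0 of 8 signalling genes and 0 of 6 survival genes measured were past 2-fold. Among 9 genes of CXCL12 signalling, Cd74, the receptor of MIF and a chaperone of MHC class II, had 13671 CPM in dendritic-like and 2075 CPM in plasma cell-like cells, and Rgs1, which damps chemokine receptor signals, had 3377 CPM in mast-like cells. Of 11 related TNF family genes, 4 were highest in T cell-like cells and 0 reached 50 CPM in plasma cell-like or B cell-like cells.

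For each member the genes with the most similar levels over 20 classes and clusters were taken among 10142 genes, by the correlation of log2(CPM + 1), a description over points that share libraries. For Cxcl12 they were Postn (r = 0.971), Thbs2 (0.942) and Olfm2 (0.9398), and for Ackr3 Ntn4 (0.965), Fam124a (0.949) and Slc10a6 (0.945). For Tnfsf13b they were Ggt5 (0.860), C7 (0.853) and Col14a1 (0.852), and for Tnfsf13, counted in few UMIs, Lilra5 (0.879), Lamtor4 (0.794) and Cln8 (0.779). Cxcr4 was closest to Lrrc8d (0.927), Cd52 (0.920) and Bin2 (0.920). Tnfrsf17 was closest to Iglv1 (0.977), Cldn7 (0.975) and Oosp1 (0.972). Tnfrsf13b was closest to Ero1lb (0.930), Irf4 (0.909) and Pik3cg (0.891), and Tnfrsf13c to Cd79a (0.952), Irf4 (0.948) and Ero1lb (0.944).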

How the data were processed

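Single-cell RNA sequencing (10x 3′ v3.1 chemistry, DNBSEQ-G400RS) was performed on sorted stromal-vascular cells of gWAT, in 4 libraries of 1 per group. The authors made the deposited UMI counts per gene and barcode with Cell Ranger 3.0.2 on mm10 with tdTomato, and no normalization had been applied. The counting step of that program keeps reads assigned to 1 gene.

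Here, cells were kept as in the study, at more than 1000 but fewer than 7000 genes with a mitochondrial share below 8%, and doublets were marked and left out (54 to 427 per library). Clustering used Python 3.11.15, scanpy 1.11.5 and leidenalg 0.10.2, with 2000 variable genes, 30 components and resolution 1. The 8 members and the listed pathway genes were left out of the clustering genes. Clusters were named from marker lists, with thresholds set after the values were seen. The members and lists were chosen with earlier results of these data known. Genes named are the members, list genes by counts with values from 50 CPM in the class described or below it where a contrast is given, and the 3 genes most like each member. UMIs were summed per class and library. Intervals are exact Poisson, Clopper-Pearson or conditional exact intervals at 95%, cover counting error only, and with 1 library per group no test was run. Each library held 64083756 to 139397501 UMIs before filtering. Interval coverage and recovery of known folds were tested on simulated data. Protein sequences were not used here.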

Additional observations from a re-analysis of the deposited data

How the results depend on the processing

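The share of Cxcl12 UMIs in adipose progenitor-like cells, 48.8%, 93.9%, 51.3% and 93.7% in the order of the libraries, depended most on how cells were filtered and clustered. With a looser cell filter (from 500 genes, mitochondrial share below 20%) it was 77.0%, 93.2%, 75.3% and 92.9%. With 4000 variable genes it was 77.6% in CD45- Tom+ and 75.1% in CD45+ Tom+. With marked doublets kept it was 44.1%, 90.9%, 49.3% and 89.1%, and without barcodes shared between libraries 63.4%, 91.4%, 66.7% and 91.9%. Tnfsf13b CPM in adipose progenitor-like cells of CD45- Tom- was 35.3 both without shared barcodes and with each cell thinned to 2000 UMIs. Tnfrsf17 CPM in plasma cell-like cells was 168, 161 and 152 in CD45- Tom+, CD45+ Tom+ and CD45+ Tom- with immunoglobulin genes left out of the total. It was 62.2 and 68.9 in the Tom+ libraries with thinned cells, and 75.5 in CD45- Tom+ with each cell weighing the same. The log2 ratio of Cxcl12, Tom+ over Tom-, in adipose progenitor-like cells of the CD45- pair was -0.139 with the looser cell filter, -0.257 with 4000 variable genes and -0.255 without immunoglobulin genes in the total. In the CD45+ pair it was -0.131 with that filter, -0.191 without immunoglobulin genes, -0.169 with each cell weighing the same and 0.0354 without shared barcodes. The log2 ratio of Tnfsf13b in the CD45- pair was -0.618 with thinned cells. Apart from changes that the settings bring by construction, the cause was not tested. Of 1233 values recomputed under any setting, 1008 stayed within their counting interval, 225 moved out of it and 0 of those past 2-fold changed sign. Tnfsf13 rests on 9 to 25 UMIs per library. Setting both libraries to 1 mix of progenitor clusters, summing Tnfsf13 with Tnfsfm13 and taking off the part in proportion to Jchain were chosen after seeing the data. No paired analysis was possible because each group has 1 library, so that the groups share no more than 1 replicate number.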
